A study of Mus musculus with 2 samples.

Results

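The genes described here encode the enzymes that build fatty acids from acetyl-CoA and then lengthen and desaturate them. They are the 10 genes Acly, Acaca and Fasn (synthesis), Elovl1, Elovl5 and Elovl6 (elongation), and Scd1, Scd2, Fads1 and Fads2 (desaturation). They were chosen by name, matched exactly to the gene symbols of the deposited table, and all 10 were found among its 23988 genes. The samples were 2 RNA-seq libraries of 1 group, called replicate 1 and replicate 2. Both hold untransformed myeloid progenitors of C57BL/6 mice, from bone marrow freed of lineage-positive cells and cultured to day 7 in medium with the cytokines interleukin 3, interleukin 6 and stem cell factor. No other genotype or treatment was used, and the leukaemia cells driven by HOXA9 and MEIS1 that the series title names were not analysed here. The labels do not say whether each library had a culture or an animal of its own. The spread between them therefore cannot be assigned to animals, cultures or technical steps. Markers of macrophages and mast cells differed widely between the libraries, as given below.

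In textbook terms, citrate leaves the mitochondrion and is cleaved by ATP citrate lyase (Acly) to cytosolic acetyl-CoA. Acetyl-CoA carboxylase (Acaca) turns this into malonyl-CoA, and fatty acid synthase (Fasn) joins the units into palmitate. ELOVL enzymes add carbon units in the endoplasmic reticulum, SCD enzymes introduce the first double bond into saturated chains, and FADS enzymes add double bonds to polyunsaturated chains taken from the diet or medium. Much of the pathway is switched on by the sterol-regulated transcription factors SREBP-1 and SREBP-2, and SCD1 also by the liver X receptors. Dividing cells use the products for membranes.

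All 10 genes were expressed in both libraries, and the stearoyl-CoA desaturase genes Scd1 and Scd2 had the highest levels of the set. Levels are RPKM, read numbers scaled to the length of the gene and the size of the library, and a gene at 1 RPKM or more in both libraries is called detected. Of all genes 43.5% were detected, so a count of 10 detected genes is read against that share. The median level of the 10 genes was 62.1 RPKM in replicate 1 and 51.2 in replicate 2. Over all detected genes it was 14.5 and 14.3 RPKM, and over all genes 0.318 and 0.483. Scd1 and Scd2 together held 66.8% of the summed RPKM of the 10 genes in replicate 1 and 83.9% in replicate 2.

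Depth could be read from the steps between RPKM values, which gave effective sizes of 29941063 reads for replicate 1 and 28793666 reads for replicate 2, possibly with a scaling factor included. In a gene 1 kb long, 1 read then counts for 0.0334 and 0.0347 RPKM. The libraries correlated closely over 16777 genes (Pearson's r 0.981 on the log2(RPKM + 1) scale), though genes are not independent replicates. Genes of the culture's labelled identity were present in both libraries. All 6 progenitor markers (Kit, Cd34, Myb, Cebpa, Spi1 and Csf2rb) were detected, as were all 9 markers of the neutrophil lineage. Macrophage and mast cell markers were present too. These were higher in replicate 2, whereas the neutrophil lineage markers went both ways, as described below beside the ratios.

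**Figure D1:**
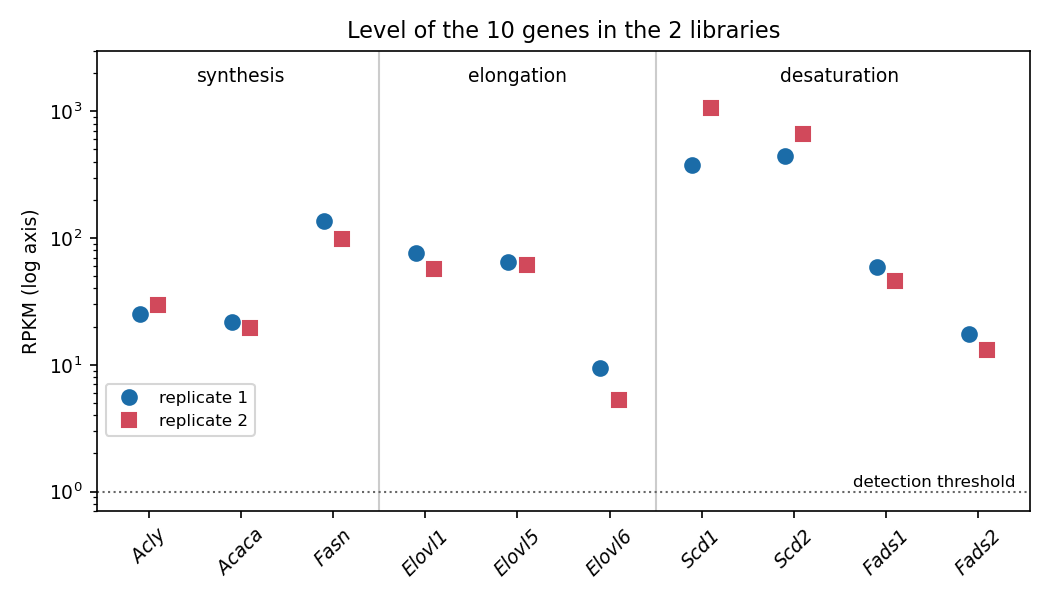
RPKM (log axis) of the 10 genes in replicate 1 (circles) and replicate 2 (squares), grouped by role, with the detection threshold of 1 RPKM as a dotted line. Scd1 and Scd2 lie at 378 to 1051 RPKM, Fasn near 100, and Elovl6 is lowest at 9.52 and 5.23 RPKM.

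Among the genes of de novo synthesis, fatty acid synthase was the highest. Fasn had 135 RPKM in replicate 1 and 99 in replicate 2, a mean of 117 ± 25.7 (SD, n = 2). At least 7835 and 5514 reads lay behind these values. Of the genes above 0 in each library, 95.5% and 94% were lower than Fasn. Acly stood at 25.2 and 29.5 RPKM, a mean of 27.4 ± 3.04 (SD, n = 2). Acaca, the carboxylase of the cytosol and the step that commits acetyl-CoA to fat, stood at 21.8 and 19.6 RPKM, a mean of 20.7 ± 1.61 (SD, n = 2). Differences between genes were taken within each library on the log2(RPKM + 1) scale and called beyond the spread where the sign was shared by both libraries and the mean exceeded 2 SD. Fasn exceeded Acaca by 2.43 ± 0.21 (SD, n = 2), a 5.39-fold difference beyond the spread. Acly minus Fasn was -2.04 ± 0.47 (SD, n = 2), also beyond the spread. Acly minus Acaca was 0.39 ± 0.26 (SD, n = 2), within it.

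Differences between genes depend on the gene lengths behind RPKM, which the sources used here do not give. The smallest gene length that turns both Acly values into whole reads was 9049 bp, 2.04 times its longest annotated transcript of 4426 bp. On that transcript Acly would stand at 51.5 and 60.3 RPKM, and Acly minus Fasn would be -1.04. For the other 9 genes the smallest fitting length was at most 1.1 times the longest transcript, but multiples of a fitting length also fit, so a length too long is not excluded for them. Across all 9987 genes that could be compared, 23.4% had a smallest fitting length over 1.2 times the longest transcript.

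The nearest alternatives to the synthesis enzymes were low. Acacb, the carboxylase isozyme at the mitochondrial surface, whose malonyl-CoA restrains fatty acid import, stood at 0.295 and 0.468 RPKM and was not detected. At least 19 and 29 reads supported these values. Acaca minus Acacb was 3.98 ± 0.24 (SD, n = 2), beyond the spread, and 5.46 with a pseudocount of 0.1. Acss2, which makes cytosolic acetyl-CoA from acetate, stood at 3.3 and 4.5 RPKM, below Acly by 5.82-fold, and Acly minus Acss2 was 2.54 ± 0.10 (SD, n = 2).

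The promoter of Fasn is shown because it is the synthesis gene of highest level, and that of Elovl6 because Elovl6 is the gene most strongly higher in replicate 1. The sequences are the 250 bases before the annotated start, from RefSeq on GRCm38.p6, whereas the deposited values used mm9. Capitals mark CCAAT boxes (CCAAT on either strand), the letters bound by the factor NF-Y. Windows were available for 7 of the 10 genes. Those of Scd1, Scd2 and Fads1 were not used here. The first window lies at chr11:120824548-120824797, minus strand, and the second at chr3:129532136-129532385, plus strand.
Fasn: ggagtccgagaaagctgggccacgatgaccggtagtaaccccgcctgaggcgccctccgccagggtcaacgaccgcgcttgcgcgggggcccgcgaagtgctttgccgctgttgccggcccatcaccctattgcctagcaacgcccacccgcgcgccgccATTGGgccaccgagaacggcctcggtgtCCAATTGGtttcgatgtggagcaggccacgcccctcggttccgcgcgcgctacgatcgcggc
Elovl6: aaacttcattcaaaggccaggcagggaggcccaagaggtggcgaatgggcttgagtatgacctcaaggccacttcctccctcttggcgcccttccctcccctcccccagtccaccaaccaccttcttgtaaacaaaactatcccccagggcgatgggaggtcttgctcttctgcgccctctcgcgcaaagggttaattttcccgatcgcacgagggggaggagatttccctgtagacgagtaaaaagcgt
The Fasn window held 3 CCAAT boxes, of which a pair in opposite orientation overlap. The Elovl6 window held none. Among 8 windows of the 7 genes (Elovl1 has a pair of starts), 3 held a CCAAT box, those of Elovl1, Elovl5 and Fasn, against 33.8% of all 32851 windows. The GC box GGGCGG, on either strand, was in 4 windows of Acly, Elovl1 and Fads2, against 32.7% of all windows. The E-box CACGTG was in 1 window, that of Elovl5, against 6.02% of all. These matches describe letters and were not tested against binding.

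Among the elongase genes, Elovl1 and Elovl5 stood well above Elovl6. Elovl1, which lengthens saturated and monounsaturated very long chains for sphingolipids, had 76.2 RPKM in replicate 1 and 56.9 in replicate 2, a mean of 66.5 ± 13.7 (SD, n = 2). Elovl5, which lengthens polyunsaturated chains, stood at 65 and 61.1 RPKM, a mean of 63 ± 2.73 (SD, n = 2). Elovl1 was the higher of the pair in replicate 1 and Elovl5 in replicate 2, and Elovl1 minus Elovl5 was 0.06 ± 0.23 (SD, n = 2), within the spread. Elovl6, which lengthens palmitate to stearate, stood at 9.52 and 5.23 RPKM, a mean of 7.37 ± 3.03 (SD, n = 2), from at least 1695 and 896 reads. Elovl5 exceeded Elovl6 by 2.98 ± 0.47 (SD, n = 2), a 7.91-fold difference beyond the spread. Exons of Elovl1 overlap Cdc20, a cell cycle gene on the opposite strand, and those of Elovl6 overlap Gm35986, also opposite. How strand was treated in counting was not found in the sources used, so reads in these overlaps cannot be assigned with certainty. Among the other 8 genes Scd2 alone shares exon bases with an annotated gene, Mir5114, a microRNA gene on the same strand, which strand could not separate.

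The desaturase genes held both the highest and some of the lower levels. Scd1, which makes monounsaturated oleate and palmitoleate, had 378 RPKM in replicate 1 and 1051 in replicate 2, a mean of 714 ± 476 (SD, n = 2). It ranked 227th of all genes in replicate 1 and 82nd in replicate 2. Scd2, an isozyme of the same reaction, stood at 447 and 664 RPKM, a mean of 555 ± 154 (SD, n = 2), and ranked 187th and 135th. Scd2 was the higher of the pair in replicate 1 and Scd1 in replicate 2. Scd2 minus Scd1 was 0.24 in replicate 1 and -0.66 in replicate 2, a mean of -0.21 ± 0.64 (SD, n = 2), so their order was not settled. Scd2 minus Fasn, the next gene in the order, was 2.22 ± 0.72 (SD, n = 2), beyond the spread. Scd1 minus Fasn was within it at 2.43 ± 1.36 (SD, n = 2), since it was 1.47 in replicate 1 and 3.40 in replicate 2.

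Scd1 and Scd2 are close copies on chromosome 19, with Scd4 as the only coding gene between them in RefSeq, and part of their sequence cannot tell them apart. Their coding sequences were 90.4% identical over 1068 aligned bases, with a longest identical run of 147 bases. That run is shown with 40 bases on each side, at coding positions 483 to 709 of Scd1 and 492 to 718 of Scd2 counted from the A of the start codon (GENCODE vM21). Capitals mark the 2 bases that differ.
Scd1: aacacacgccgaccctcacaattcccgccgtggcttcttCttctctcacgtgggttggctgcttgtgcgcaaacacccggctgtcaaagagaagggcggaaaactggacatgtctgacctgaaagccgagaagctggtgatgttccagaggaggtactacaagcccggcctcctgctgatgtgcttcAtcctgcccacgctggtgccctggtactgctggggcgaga
Scd2: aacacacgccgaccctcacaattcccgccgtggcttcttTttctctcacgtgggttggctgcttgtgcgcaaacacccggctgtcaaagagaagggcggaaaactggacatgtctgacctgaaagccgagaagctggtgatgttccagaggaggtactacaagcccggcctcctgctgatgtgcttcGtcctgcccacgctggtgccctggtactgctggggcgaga
Of the 1019 stretches of 50 bases in the Scd1 coding sequence, 14.2% also occurred in that of Scd2. Over the whole Scd1 transcript, most of which lies outside the coding part, the share was 3.03%. Shared with the coding sequence of Scd3, a skin gland isozyme that stood at 0.4 and 0.416 RPKM here, were 16.4%. The labels do not say how reads that match several copies were counted, so the values of Scd1 and Scd2 are uncertain to that extent. Scd4 stood at 0.147 and 0.299 RPKM.

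The FADS genes were lower and kept nearly the same distance in both libraries. Fads1, the delta-5 desaturase, had 59.2 RPKM in replicate 1 and 45.6 in replicate 2, a mean of 52.4 ± 9.64 (SD, n = 2). Fads2, the delta-6 desaturase that acts before it on polyunsaturated chains, stood at 17.4 and 13.1 RPKM, a mean of 15.3 ± 3.06 (SD, n = 2). Fads2 minus Fads1 was -1.71 in replicate 1 and -1.73 in replicate 2, a mean of -1.72 ± 0.011 (SD, n = 2), a 3.29-fold difference beyond the spread. The genes are direct neighbours on chromosome 19 and none of the 1295 stretches of 50 bases in the Fads1 coding sequence occurred in that of Fads2. Fads3, the next gene of the cluster, stood at 1.51 and 2.21 RPKM.

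In the order of mean level the genes ran Scd1, Scd2, Fasn, Elovl1, Elovl5, Fads1, Acly, Acaca, Fads2 and Elovl6. Of the 9 neighbouring pairs in this order, 5 differed beyond the spread. The pairs within it were Scd1 with Scd2, Elovl1 with Elovl5, Elovl5 with Fads1, and Acly with Acaca. Of all 45 pairs, 39 differed beyond the spread. The share beyond the spread among pairs of other genes was not worked out. The counts of 5 and 39 pairs are therefore not a result about these genes as a set. By role, the median of the synthesis genes lay below that of the desaturases, with a difference of -2.53 ± 0.0017 (SD, n = 2). The desaturase median lay between Fads1 and Scd1 in replicate 1 but between Fads1 and Scd2 in replicate 2. Its small SD therefore does not measure how well the libraries agreed for the same genes. Fads2 lay below every synthesis gene in both libraries. With means in place of medians the difference was -1.66 ± 0.32 (SD, n = 2), so its size depended on the summary used. Against the elongases it was -1.13 ± 0.29 (SD, n = 2), but 0.35 with means in place of medians, so that the direction turned with the summary used. With Acly on its longest transcript these differences were -1.52 and -0.12.

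The libraries differed for Scd1 and in the opposite direction for Elovl6, while the other 8 genes lay within 1.5-fold. Ratios are replicate 1 over replicate 2 on the RPKM + 1 scale, which understates differences of low genes, and each side is 1 library, so that no test was possible. Of the 10896 genes whose mean reached 1 RPKM, 4.26% were 1.5-fold or more higher in replicate 1 and 11.3% higher in replicate 2. Of the 10 genes, 1 passed this fold in each direction, which next to those shares is not a result about the 10 genes as a set. Scd1 had a log2 ratio of -1.47, 2.78-fold higher in replicate 2, and 2.5% of the genes were at least as far that way. Elovl6 had a log2 ratio of 0.76, 1.69-fold higher in replicate 1, and 1.63% of the genes were at least as far that way. At a threshold of 2-fold, Scd1 passed and Elovl6 did not, where 5.3% of the genes passed toward replicate 2 and 0.734% toward replicate 1.

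The counting intervals of all 10 genes lay clear of 1, so they do not set Scd1 and Elovl6 apart. Even that of Elovl5, the gene with the ratio nearest 1, was 1.023 to 1.105. From the smallest whole read numbers that fit, which give the widest intervals, the RPKM ratio of Elovl6 was 1.82 (95% interval 1.68 to 1.98). That of Scd1 was 0.359 (0.338 to 0.382), from at least 1425 and 3813 reads. Scd2 lay just inside the fold with a ratio of 0.672 (0.662 to 0.683) and a log2 ratio of -0.57, and past it when the median log2 ratio of all genes was set to 0. Intervals are exact binomial ones and cover counting error only, since the reads carry no molecular identifiers. They say nothing of the spread between cultures.

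Apart from the SCD pair and Acly, the genes were higher in replicate 1. Fasn had a log2 ratio of 0.45, Elovl1 0.42, Fads2 0.39, Fads1 0.37, Acaca 0.15 and Elovl5 0.09. Acly had -0.22. The median log2 ratio of the 10 genes was 0.26, against 0.05 for all genes tested, and Elovl5 changed sign, to -0.0070, with the median of all genes set to 0. The summed level of the 8 genes other than Scd1 and Scd2 was 409.7 RPKM in replicate 1 and 330.0 in replicate 2, whereas all 10 summed to 1234 and 2045 RPKM. Likeness of pattern to other genes was not measured, because 2 libraries allow no informative correlation.

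**Figure D2:**
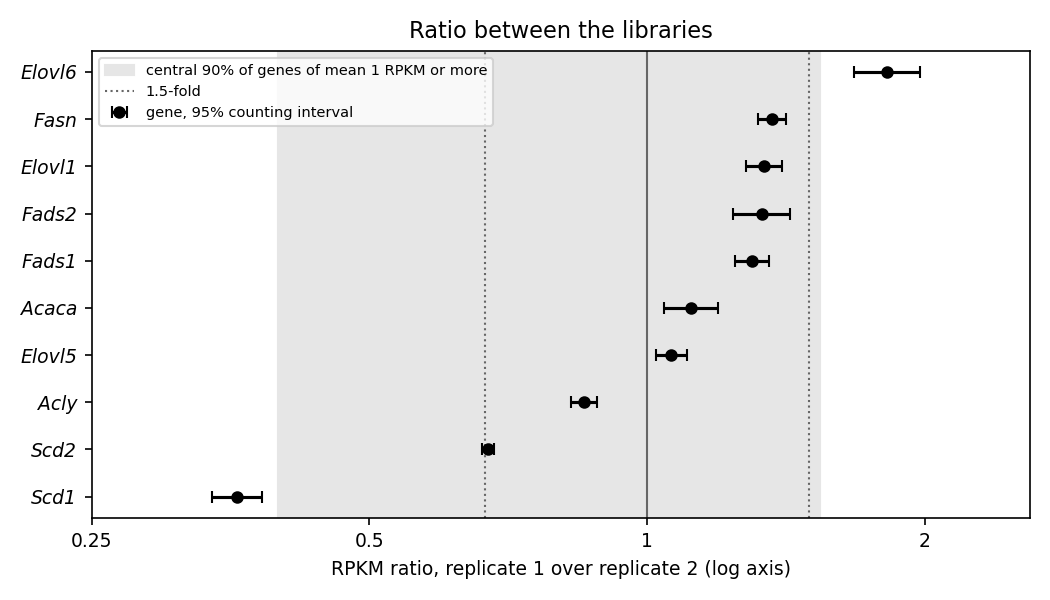
RPKM ratio of replicate 1 over replicate 2 (log axis) for the 10 genes, with 95% exact counting intervals as bars, the central 90% of genes with a mean of 1 RPKM or more in grey (0.398 to 1.54), and 1.5-fold as dotted lines. Scd1 lies left of the grey band at 0.359 and Elovl6 right of it at 1.82, and the other 8 genes lie inside.

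Cell type markers also differed between the libraries. All 9 macrophage markers were higher in replicate 2, 8 of them by 1.5-fold or more, with Mrc1 the exception. Their summed level was 672 RPKM in replicate 1 and 2355 in replicate 2. Most of each sum was 1 gene, Lyz2 (lysozyme), at 442 and 1853 RPKM. Csf1r, the receptor that defines the lineage, stood at 22 and 71 RPKM. Of the 6 mast cell markers, all were higher in replicate 2, with sums of 34.7 and 400.3 RPKM, and Cma1 (chymase) stood at 3.55 and 211 RPKM. Of the 9 neutrophil lineage markers, 6 were higher in replicate 1, and the list summed to 57810 and 47360 RPKM. Most of each sum was S100a8, at 17987 and 13323 RPKM, and S100a9, at 26131 and 18619, so the sums say little of the other markers. None of the 6 markers higher in replicate 1 reached 1.5-fold, and Mpo (myeloperoxidase) stood at 1587 and 1164 RPKM. Higher in replicate 2 were Ngp, at 6247 and 7796 RPKM, Ltf, at 1626 and 1815, and Camp, a granule peptide gene, by 2.08-fold. The part of these lineages in the ratios of the 10 genes was not tested. In bulk RNA a change in the share of a cell type and a change in RNA per cell cannot be told apart. Fat cells of the marrow also express this pathway. Of the 7 adipocyte markers 2 were detected, Fabp4 at 38.7 and 68.7 RPKM and Lipe at 12.6 and 12.4. These 2 made up nearly all of the list sum of 52.6 RPKM in replicate 1 and 81.9 in replicate 2. Plin1 and Lep were listed at 0 in both libraries and Adipoq stood at 0.0194 and 0.0303 RPKM, from at least 2 and 3 reads. The part of fat cells in the levels of the 10 genes was not tested. Of the 5 stromal markers Lepr and Pdgfrb were detected, at 2 to 3.2 RPKM, and no marker of B cells, T cells or erythroid cells was detected in both libraries.

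**Figure D3:**
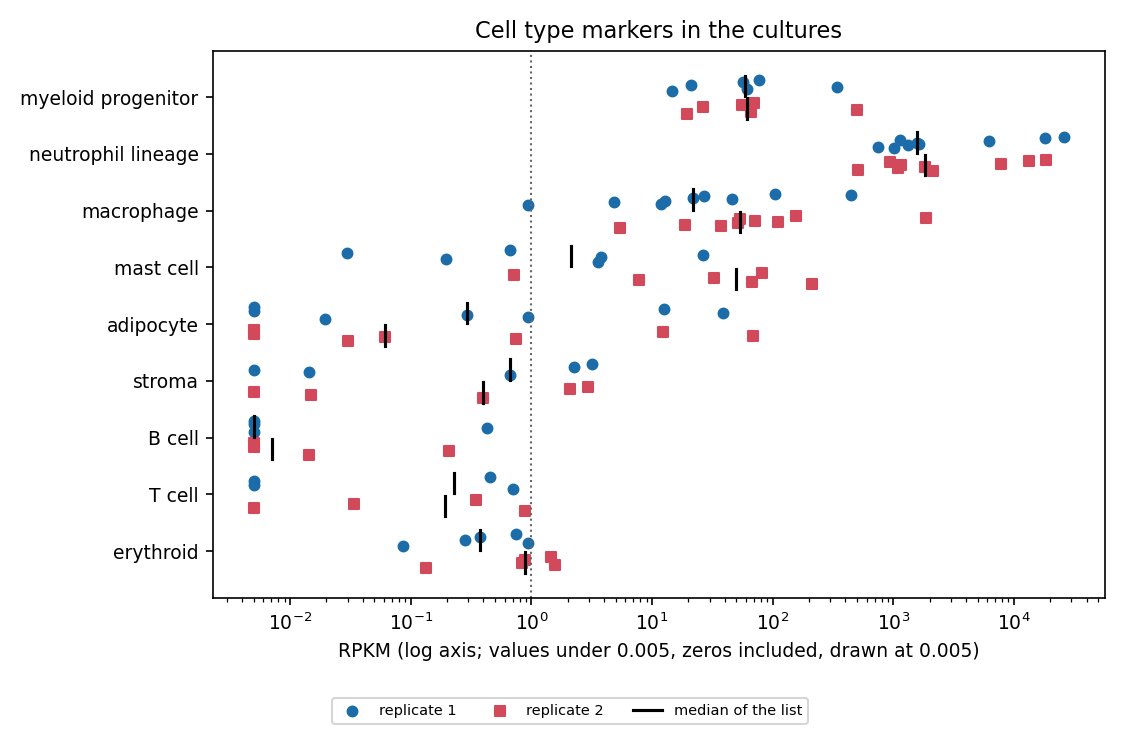
RPKM (log axis, values under 0.005 drawn there) of cell type markers in replicate 1 (circles) and replicate 2 (squares), with list medians as black bars and 1 RPKM dotted. Macrophage medians are 22 and 53.2 RPKM and mast cell medians 2.11 and 50, whereas adipocyte medians stay below 0.3 RPKM.

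The wider pathway was described with lists of genes grouped by role, chosen with earlier results of these data known. Of the 72 genes in these lists with a fitted and an annotated length, 23 had a smallest fitting length over 1.2 times the longest transcript, so their RPKM may be too low and the order within their lists is uncertain. The list for substrate and NADPH supply also held genes that supply neither citrate nor NADPH, among them Acss2, Acacb and Hlcs. Of its 10 genes, 8 were detected at 1 RPKM, against 43.5% of all genes, and 5 at 5 RPKM, for which no such share was worked out. None of the 8 was 1.5-fold apart, where 4.26% of all genes tested passed toward replicate 1 and 11.3% toward replicate 2. Next to those shares the count is not a result about this list, and the same shares apply to the lists below. Pgd, an NADPH-forming enzyme of the pentose phosphate pathway, stood at 264 and 267 RPKM, and G6pdx, which opens that pathway, at 192 and 167. Cs, citrate synthase, stood at 208 and 153 RPKM, and Slc25a1, the mitochondrial citrate carrier, at 55.6 and 48.4. Besides Acacb the undetected gene was Me1, the cytosolic malic enzyme and another source of NADPH, at 0.42 and 0.12 RPKM. Its smallest fitting length was 5.46 times its longest transcript, so its level is uncertain. For Slc25a1 the factor was 1.26. Hlcs, which attaches the biotin that carboxylases need, stood at 1.85 and 3.01 RPKM.

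The remaining steps of the elongation cycle were expressed beside the elongases. Tecr, the final reductase, stood at 59 and 47 RPKM, and Hsd17b12, the ketoacyl reductase, at 54.1 and 53.3. The smallest fitting length of Tecr was 3.27 times its longest transcript. Of the dehydratase genes, Ptplb stood at 18.7 and 14.7 RPKM, and Ptplad2 was the only gene of this list past 1.5-fold, at 8.78 in replicate 1 and 23 in replicate 2, below Ptplb in replicate 1 and above it in replicate 2. Of the list, 8 genes were detected at 1 RPKM and 5 at 5 RPKM. Of the other elongases, Elovl7 stood at 3.62 and 3.5 RPKM and Elovl3 at 1.97 and 1.28, while Elovl2 and Elovl4 did not exceed 0.0362 RPKM, values that 1 to 4 reads suffice to give. Elovl1, Elovl5 and Elovl6 were therefore the highest of the 7 elongase genes in both libraries.

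Genes listed as electron donors of the desaturases were detected, and the other desaturases were low except Degs1. Cyb5b and Cyb5, which encode cytochrome b5 proteins, stood at 138 and 95.6 RPKM (Cyb5b) and at 46.1 and 39.1 RPKM (Cyb5). Their reductase gene Cyb5r3 stood at 16.9 and 23.7 RPKM. Which cytochrome b5 protein serves the desaturases was not tested. Degs1, which desaturates the sphingoid base of ceramide, stood at 33.3 and 44.7 RPKM. Of the 9 genes in this list 5 were detected, and the undetected ones were Scd3, Scd4, Fads6 and Degs2. Degs2 stood at 0.301 and 0.923 RPKM. Its smallest fitting length was 4.81 times its longest transcript, so whether it counts as detected is uncertain. For Scd4 the factor was 1.65 and for Scd3 1.39.

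Regulators of lipogenesis were expressed in both libraries, and both SREBP genes were the highest of the list. Srebf1 stood at 178 and 221 RPKM, and Srebf2 at 141 and 146. Srebf2 minus Srebf1 was -0.47 ± 0.19 (SD, n = 2), beyond the spread. A gene-level value does not separate the SREBP-1a and SREBP-1c transcripts of Srebf1. Insig1, which holds SREBPs back when sterols abound and is itself an SREBP target, stood at 75.7 and 58.3 RPKM. Of the liver X receptor genes, Nr1h2 stood at 28.2 and 34.3 RPKM and Nr1h3 at 1.99 and 1.25, with smallest fitting lengths 1.38 and 2.34 times the longest transcript. The carbohydrate-responsive factor gene Mlxipl, at 0.0338 and 0.352 RPKM, and Thrsp, at 0 and 0.0161, were the undetected ones among 14, and Rxra alone was past 1.5-fold, at 2.96 and 7.14 RPKM. The AMP-activated kinase, which inhibits acetyl-CoA carboxylase by phosphorylation, had 4 of 7 subunit genes detected, which were Prkaa1 at 78.5 and 68.2 RPKM, Prkag1 at 51.7 and 45.7, and Prkab1 at 20.3 and 18.2, with Prkag2 at 3.32 and 5.48. The smallest fitting length was 1.51 times the longest transcript for Prkag1, 2.23 times for Prkab1 and 1.53 times for Prkag2.

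Genes for the use of fatty acids were present alongside those for making them. Of the 5 acyl-CoA synthetase genes 4 were detected. Acsl1 stood at 96.9 and 61.3 RPKM and Acsl5 at 82.3 and 77, so that Acsl1 was the higher in replicate 1 and Acsl5 in replicate 2, and Acsl4 stood at 26.6 and 26.2. Acsl3 stood at 19.3 and 16.9 RPKM, and Acsl6 was listed at 0 in both libraries. Acsl1 was 1.57-fold higher in replicate 1. Of 10 fatty acid oxidation genes 9 were detected, and the list medians were 29.9 and 30.7 RPKM. The acyl-CoA dehydrogenase gene Acadl led at 112 and 68.2 RPKM, 1.64-fold higher in replicate 1, followed by Hadha at 81.5 and 64 and Acadvl at 58 and 49.9. Cpt1a, the carnitine transferase that malonyl-CoA inhibits, stood at 30.9 and 30.3 RPKM, and its muscle isozyme gene Cpt1b, at 0.0233 and 0.0646, was the undetected one.

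Mitochondrial fatty acid synthesis and glycerolipid synthesis were also expressed. All 5 genes of the mitochondrial pathway found in the table were detected, led by Ndufab1, the acyl carrier protein, at 109 and 76.4 RPKM, with Mcat at 9.74 and 9.59 and Oxsm at 8.7 and 10.1, with Cbr4 at 8.51 and 9.66 and Mecr at 3.79 and 3.15. Of the 10 glycerolipid genes 8 were detected, among them the acyltransferase genes Agpat1 at 84.8 and 89.5 RPKM, Dgat1 at 78.9 and 80.7 and Agpat6 at 79.5 and 67.6. The smallest fitting length of Dgat1 was 1.49 times its longest transcript. Gpam and Gpat2, mitochondrial acyltransferases, were the undetected ones, at no more than 0.938 RPKM. Agpat9 and Lpin1 were 2.46-fold and 2.19-fold higher in replicate 2.

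**Figure D4:**
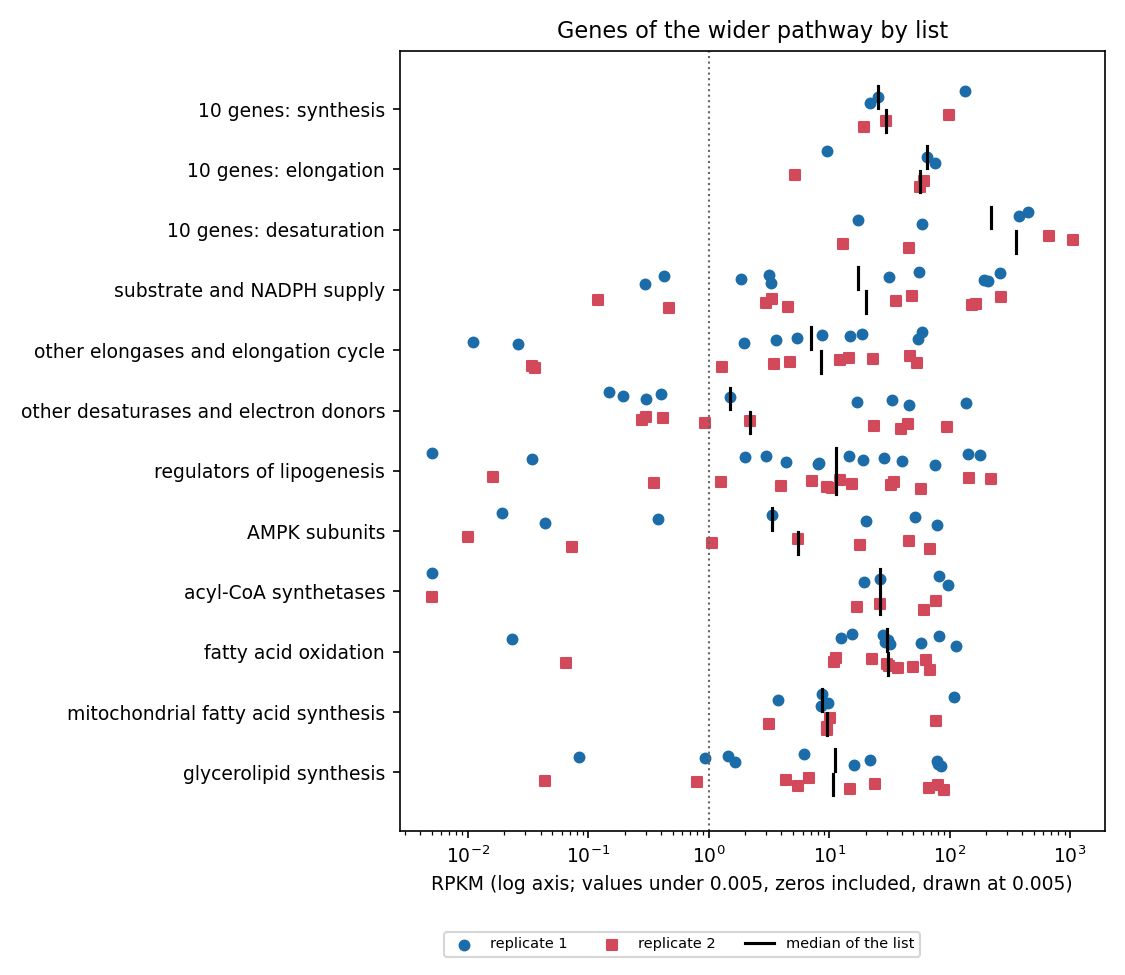
RPKM (log axis, values under 0.005 drawn there) of the 10 genes by role and of the wider lists in replicate 1 (circles) and replicate 2 (squares), with list medians as black bars and 1 RPKM dotted. The desaturation genes have the highest medians, 218 and 355 RPKM, and the oxidation list lies at 29.9 and 30.7 RPKM.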

How the data were processed

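RNA-seq was measured in 2 libraries of 1 group. Per the labels' protocols, RNeasy columns with a DNase step gave total RNA, from which TruSeq libraries were made. The authors deposited RPKM values with 1 column per library, which the column names tie to the sample titles. Per the submitters' processing notes, Trimmomatic 0.32, TopHat2, HTSeq and edgeR were used with build mm9. Settings, annotation, gene lengths and strand setting were not given in the sources used here. RPKM is lowered where the length used is too long, and a few very high genes lower all others.

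Of 24015 rows, 27 with names in the form of dates were left out. With 1 group no conditions were compared and no test was run; with 2 libraries the smallest p of an exact sign-flip permutation test is 0.5. Levels were summarised as mean and SD, and ratios between libraries with a pseudocount of 1 over genes whose mean reached 1 RPKM. Library sizes came from 474 genes with equal read numbers and 61 genes of 1 annotated transcript. Read numbers are the smallest whole ones that fit both values, within 0.0001 reads or the rounding of the table, at lengths of 100 to 30000 bp. Recovery of sizes, reads and fold calls was checked on simulated data. The genes and lists were chosen with earlier results of these data known. In each wider list the text names the 3 genes of highest mean, genes at 0 in both libraries, genes of a preset contrast and the genes behind counts of 5 or fewer, with a few more chosen after their values were seen (Slc25a1, Hlcs, Elovl3, Elovl7, Nr1h2, Nr1h3 and Cpt1a). Hsd17b8 was not matched. Sequences came from RefSeq (GRCm38.p6) and GENCODE vM21. Python 3.11.15 with scipy 1.17.1 was used.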

Additional observations from a re-analysis of the deposited data

How the results depend on the processing

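No paired analysis was possible because the labels give 1 group. Among the differences between genes, a pseudocount of 0.1 gave -1.78 for Fads2 minus Fads1, 5.46 for Acaca minus Acacb, 2.79 for Acly minus Acss2 and -2.56 for synthesis minus desaturation, which kept their direction. Means in place of medians gave -1.66 for synthesis minus desaturation and turned synthesis minus elongation to 0.35. The synthesis median was the value of Acly, whereas the mean also takes in the higher Fasn. The elongation mean likewise takes in Elovl6, the lowest of the 10 genes. With Acly on its longest annotated transcript, an alternative chosen after seeing the data, Acly minus Fasn was -1.04, Acly minus Acss2 3.54, synthesis minus elongation -0.12 and synthesis minus desaturation -1.52. The number of the 10 genes higher in replicate 1 was 0 at a 2-fold threshold, against 0.734% of all genes tested. The number higher in replicate 2 was 2 with the median log2 ratio set to 0, against 13.2% of all genes tested. Under that setting Elovl5 had a log2 ratio of -0.0070. All 10 genes were detected at 0.5 and at 5 RPKM, thresholds at which the share of all genes was not worked out. Without 1 library, Scd2 minus Scd1 ranged from -0.66 to 0.24 and Elovl1 minus Elovl5 from -0.10 to 0.23; the other differences kept their sign. Leaving out 1 of 2 libraries cannot move a mean by as much as the SD, so such values were not counted, and of the other 31 alternative values for these comparisons 19 moved by less than the spread between libraries or, for counts, by at most 1.5 times. The smallest fitting read number of the 10 genes was 896. The gene lengths behind RPKM, the counting of reads shared by the SCD genes or by overlapping genes, and the number of libraries limit these values.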
